A study of Mus musculus with 4 samples.

Results

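Interferon-stimulated effector genes are the antiviral and immune genes that a cell switches on when interferon reaches it. The group described here holds 40 genes, chosen by name from well-known interferon-induced effectors and leaving out the OAS family, out of 56691 genes listed. Earlier results of these data were known when the genes were chosen. All 40 symbols matched 1 entry each. RNA was measured as poly(A) RNA-seq counts in Ter119+ cells, the erythroid fraction, of mouse bone marrow. The groups compared have 2 libraries each: Med16 fl/fl, in which both copies of the gene for a Mediator subunit are floxed, and Med16 KO, in which it is knocked out, all with a time label of 3 weeks. The labels used here do not give the strain, the driver of the deletion, or what the 3 weeks are counted from.

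Type I and type II interferons act through cell-surface receptors, JAK kinases and STAT proteins. Type I interferon assembles a factor that contains STAT2 and IRF9 and binds the interferon-stimulated response element, while type II interferon acts through gamma-activated sites. The genes switched on in this way bind or destroy foreign RNA, block translation and membrane fusion, modify proteins with ISG15 or ADP-ribose, and feed back on the signal itself. Mediator carries signals from such DNA-bound factors to RNA polymerase II, and Med16 belongs to its tail, the part that contacts activators.

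The promoters of 5 members are shown, chosen by p value or mean CPM and not by their sequence. Rsad2, Isg15 and Cmpk2 fell in Med16 KO, while Isg20 and Lgals9 are the members with the highest mean CPM that did not pass the test. Each sequence is the 250 bases before the gene start in RefSeq, build GRCm38.p6, written 5′ to 3′ on the gene's strand. That build differs from the one used for counting, so sequences were matched by symbol. Capitals mark GAAA, any 2 letters and GAAA again, on either strand, the core letters of the interferon-stimulated response element.
Rsad2 promoter: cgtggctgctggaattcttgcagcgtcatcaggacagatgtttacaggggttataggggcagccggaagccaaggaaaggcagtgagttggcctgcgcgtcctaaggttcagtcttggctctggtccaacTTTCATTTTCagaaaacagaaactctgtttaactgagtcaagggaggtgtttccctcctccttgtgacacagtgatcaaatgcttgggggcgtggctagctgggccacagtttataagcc
Isg15 promoter: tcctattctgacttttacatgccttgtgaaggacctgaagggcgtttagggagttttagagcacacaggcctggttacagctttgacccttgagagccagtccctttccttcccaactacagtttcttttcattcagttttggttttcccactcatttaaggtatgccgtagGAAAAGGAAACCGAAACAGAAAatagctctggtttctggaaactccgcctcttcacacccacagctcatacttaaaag
Cmpk2 promoter: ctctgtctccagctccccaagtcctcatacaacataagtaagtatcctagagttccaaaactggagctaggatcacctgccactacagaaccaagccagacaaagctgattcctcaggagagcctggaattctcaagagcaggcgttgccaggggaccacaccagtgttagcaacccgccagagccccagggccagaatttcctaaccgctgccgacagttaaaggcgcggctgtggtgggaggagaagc
Isg20 promoter: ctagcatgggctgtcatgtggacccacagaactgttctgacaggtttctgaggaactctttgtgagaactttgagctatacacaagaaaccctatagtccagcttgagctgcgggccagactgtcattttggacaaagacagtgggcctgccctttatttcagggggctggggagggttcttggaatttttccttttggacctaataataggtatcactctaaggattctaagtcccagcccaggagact
Lgals9 promoter: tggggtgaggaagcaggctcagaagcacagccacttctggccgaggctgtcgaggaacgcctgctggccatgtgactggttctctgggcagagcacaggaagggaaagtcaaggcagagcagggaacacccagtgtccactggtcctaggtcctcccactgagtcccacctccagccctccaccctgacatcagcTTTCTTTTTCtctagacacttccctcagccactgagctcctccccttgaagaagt
Rsad2 is at chr12:26456453-26456702 on the minus strand, Isg15 at chr4:156200819-156201068 on the minus strand, Cmpk2 at chr12:26468965-26469214 on the plus strand, Isg20 at chr7:78913174-78913423 on the plus strand and Lgals9 at chr11:78984925-78985174 on the minus strand. Isg15 held 3 overlapping matches, Rsad2 and Lgals9 1 each, and Cmpk2 and Isg20 none in this window. Isg20 has 3 promoter entries, of which the first is shown, and none of them held a match.

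The core letters were common among members but did not separate those that fell from those that did not. Of 31 members with a promoter entry, 16 (51.6%) held these letters on either strand, against 3.46% of 27025 genes with a promoter of the same length. Among members that fell, 6 of 13 held it (46.2%), and among members not past the threshold 8 of 15 (53.3%). The gamma-activated site letters TTCNNNGAA, which read the same on both strands, were in 6 of the 31 members (19.4%) against 8.13% of all promoters, and in 3 of 13 and 3 of 15 in the same order. The 2 kinds of match overlapped in 1 of the 16 members with the response element letters. Among members not past the threshold whose interval lay wholly above -1, Bst2 and Lgals9 held the response element letters. Isg20, Samd9l, Ifitm3, Ifi47, Ifit2 and Ifitm1 did not. Among those whose interval reached -1 or lower, Ifit3, Trim30a, Ddx60, Gbp2, Gbp3 and Cxcl10 held them and Ifi35 did not. A difference between these groups was not tested. Members without an entry were Usp18, Dhx58, Zbp1, Parp9, Parp14, Mx1, Mx2, Rtp4 and Ifi27.

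Libraries held 6749196 to 7216333 counts assigned to genes, and each count is worth 0.140 to 0.147 CPM, the unit used below (library totals multiplied by TMM factors). A count of 0 allows up to 3 counts, or 0.421 to 0.441 CPM. Genes with at least 1 count numbered 18947 and 19016 in fl/fl and 16892 and 16479 in KO. This difference runs with genotype, and its bearing on members with few counts was not tested. Med16 followed the labels, at 164 and 127 counts in fl/fl against 16 and 30 in KO, a log2 fold change of -2.64. Erythroid markers were abundant in every library, with 9 listed markers summing to 164361 to 172426 CPM. Whether the 2 libraries of a genotype are from different animals is not stated in the labels, so p values reflect only how these libraries vary, possibly for technical reasons.

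Interferon effector genes were split in Med16 KO. Of the 40 members, 37 passed the filter on low counts and were tested. Of these 37, 17 were lower in KO, 1 was higher and 19 did not pass the test (edgeR quasi-likelihood test, two-sided, adjusted p under 0.05 by Benjamini-Hochberg over 13052 genes). Over all genes tested, 9.89% were called lower and 8.5% higher. Because members were chosen with earlier results of these data known, this comparison is a description only. The median log2 fold change of the tested members was -0.82, against 0.02 for all genes tested, and 32 of 37 members were below 0. The 17 that fell did so by 0.72 (Trim25) to 2.08 (Usp18) on the log2 scale, with a median of -1.17. Of the 37 members tested, 11 were called lower by at least 1, as were 1.13% of all genes tested. These are bulk samples, in which fewer cells of a type and less RNA per cell cannot be told apart.

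**Figure D1:**
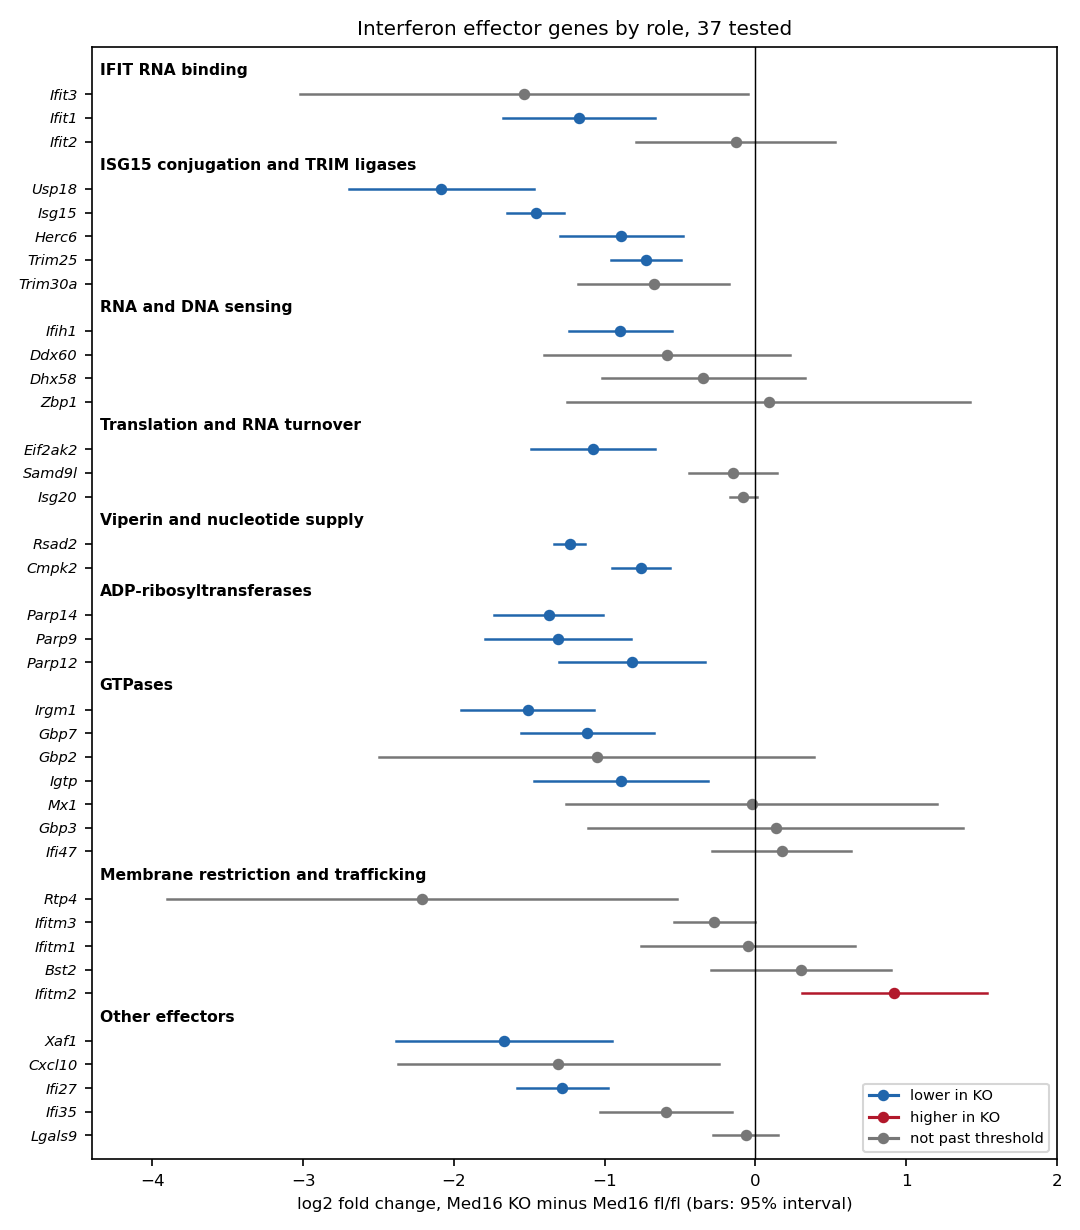
Log2 fold change of the 37 tested members, Med16 KO minus Med16 fl/fl, grouped by role on the vertical axis; points are edgeR estimates and bars are 95% intervals. The 17 members in blue were called lower and Ifitm2, in red, higher; grey members did not pass the test, some with intervals close to 0 (Isg20, Lgals9) and some with wide ones (Rtp4, Ifit3).

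Levels were very unequal, and a pair of genes made up most of the signal. Summed over all 40 members, the libraries held 3453 and 3456 CPM in fl/fl and 2127 and 2064 CPM in KO. Rsad2 alone gave 40.1% of the fl/fl sum and Isg20 24.0%, and Rsad2 accounted for 58.5% of the fall in the sum. The KO sum was 60.7% of the fl/fl sum, and 72.8% with Rsad2 left out. The 17 members that fell went from 2265 to 2274 CPM in fl/fl to 970.3 to 1027 CPM in KO, while the 19 not past the threshold went from 1168 to 1182 CPM to 1078 to 1086 CPM. Per kilobase of exon, the order in fl/fl was Isg20 (446 CPM per kilobase), Rsad2 (319), Isg15 (266), Ifitm3 (88.7), Ifi27 (46.9), Lgals9 (40.2) and Cmpk2 (32.9). In KO it was Isg20 (422 CPM per kilobase), Rsad2 (136), Isg15 (97.1), Ifitm3 (73.5), Lgals9 (38.5), Ifitm2 (22.2), Cmpk2 (19.5) and Ifi27 (19.3). Lgals9 thus stood above Ifi27 in KO only, and Cmpk2 and Ifi27 were at nearly the same level there.

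**Figure D2:**
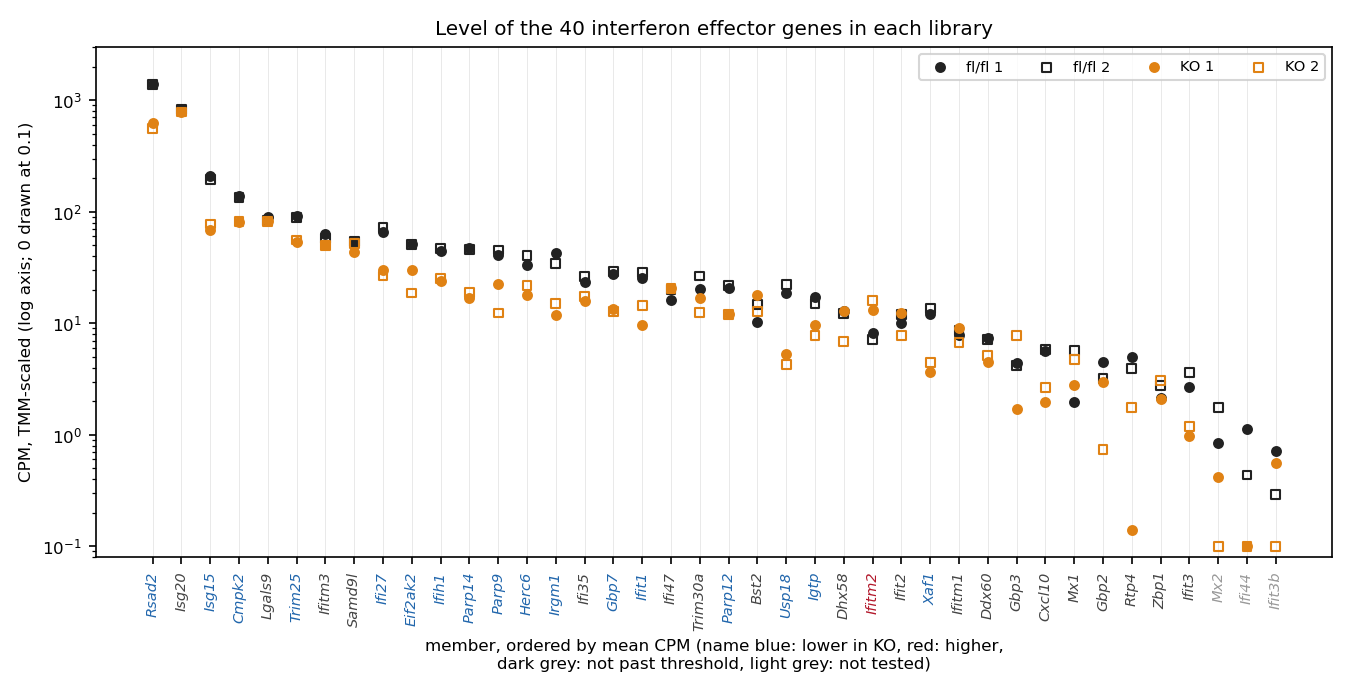
TMM-scaled CPM of each of the 40 members in each library, on a log axis with a count of 0 drawn at 0.1; filled circles are replicate 1 and open squares replicate 2, black for fl/fl and orange for KO. Orange points lie below black ones for members from Rsad2 to Xaf1 whose names are in blue, and overlap them for Samd9l, Bst2 and Ifit2.

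Viperin and its partner enzyme fell together. Rsad2 (ENSMUSG00000020641) encodes viperin, which turns CTP into a chain-terminating nucleotide. It was at 1389 and 1381 CPM in fl/fl and at 618 and 561 CPM in KO, 1385 ± 5.79 against 590 ± 40.5 (mean ± SD, n = 2 per genotype, as below), and its log2 fold change was -1.23 (SE 0.05, edgeR adjusted p = 9.3e-11). Cmpk2 (ENSMUSG00000020638), its neighbour in the opposite direction on chromosome 12, encodes a mitochondrial nucleotide kinase that makes CTP. Its level was 140 and 134 CPM in fl/fl and 80.0 and 82.1 CPM in KO, a log2 fold change of -0.76 (SE 0.09, edgeR adjusted p = 2.1e-05). Both KO libraries lay far below both fl/fl libraries for each gene, and the 95% intervals, -1.33 to -1.13 for Rsad2 and -0.95 to -0.57 for Cmpk2, did not overlap.

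Genes of ISG15 conjugation also fell, 4 of the 5 tested in this role. Isg15 (ENSMUSG00000035692), the ubiquitin-like protein attached to other proteins, was at 208 and 195 CPM in fl/fl and 69.1 and 77.7 CPM in KO (log2 fold change -1.46, SE 0.09, edgeR adjusted p = 2e-08). Usp18, which removes ISG15 and also dampens the type I interferon receptor, had the largest fall among called members, from 18.5 and 22.3 CPM to 5.34 and 4.27 CPM (-2.08, SE 0.29, edgeR adjusted p = 9.1e-05). Both genes were well separated between the genotypes. Herc6, the main ISG15 ligase of the mouse, was at 33.1 and 40.5 CPM against 17.8 and 21.9 CPM (-0.89, SE 0.19), a call that ended without fl/fl library 2 (-0.75, edgeR adjusted p = 0.11). Trim25, a ubiquitin ligase that activates the sensor RIG-I, was at 90.6 and 89.2 CPM against 53.1 and 55.8 CPM, a fall of 0.72 (SE 0.11). Trim30a, another TRIM protein, did not pass the test at -0.67 (SE 0.24, edgeR adjusted p = 0.06), though its KO libraries, 16.9 and 12.5 CPM, were below its fl/fl libraries, 20.4 and 26.5 CPM. It was called without KO library 1 (-0.92, edgeR adjusted p = 0.00076) and with DESeq2 (-0.69, adjusted p = 0.049).

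All 3 antiviral ADP-ribosyltransferases of the group fell. Parp14, which adds single ADP-ribose units, was at 46.9 and 45.8 CPM in fl/fl and 17.0 and 18.8 CPM in KO (log2 fold change -1.37, SE 0.17, edgeR adjusted p = 3.3e-05). Parp9, which works with the ubiquitin ligase Dtx3l, went from 40.9 and 45.4 CPM to 22.3 and 12.4 CPM (-1.31, SE 0.23, edgeR adjusted p = 0.00068), with the KO libraries spread widely. Parp12, which can restrain translation, was at 20.7 and 21.9 CPM against 12.2 and 11.9 CPM (-0.82, SE 0.23, edgeR adjusted p = 0.02). The genotypes did not overlap for any of them, but the call of Parp12 ended without fl/fl library 1 (-0.87, edgeR adjusted p = 0.14) or fl/fl library 2 (-0.78, edgeR adjusted p = 0.23).

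Among RNA sensors and RNA-binding effectors, some were called lower and others were not. Ifih1, which encodes the double-stranded RNA sensor MDA5, fell from 44.0 and 47.1 CPM to 24.0 and 25.0 CPM (log2 fold change -0.89, SE 0.16, edgeR adjusted p = 0.00092). Eif2ak2, the kinase PKR that shuts down translation on double-stranded RNA, fell from 51.8 and 50.6 CPM to 29.8 and 18.7 CPM (-1.08, SE 0.19, edgeR adjusted p = 0.00089). Ifit1, which binds the ends of foreign RNA, fell from 25.6 and 28.6 CPM to 9.69 and 14.4 CPM (-1.17, SE 0.24, edgeR adjusted p = 0.0024). In these 3 genes both KO libraries were below both fl/fl libraries. Ifit2, a relative of Ifit1, had overlapping libraries, at 10.05 and 12.04 CPM in fl/fl and 12.4 and 7.80 CPM in KO. Its log2 fold change was -0.13, and its 95% interval (-0.79 to 0.53) overlaps that of Ifit1 (-1.67 to -0.67). Dhx58, a helicase that tunes RNA sensing, was at 12.7 and 12.3 CPM against 12.8 and 6.91 CPM. KO library 1 was at the fl/fl level and KO library 2 below it. For Dhx58 the log2 fold change was -0.34, and its 95% interval (-1.02 to 0.33) overlaps that of Ifih1 (-1.24 to -0.55). It was called only in a fit without KO library 1 (-0.87, edgeR adjusted p = 0.023).

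Isg20 and Samd9l, also in the roles of RNA turnover and translation, stayed close to the control level. Isg20, an RNA exonuclease and the most abundant member per length, was at 831 and 830 CPM in fl/fl and 787 and 783 CPM in KO (log2 fold change -0.08, SE 0.04, edgeR adjusted p = 0.21). Its 95% interval of -0.17 to 0.01 lies apart from that of Rsad2, the other very abundant member. Samd9l, an antiviral factor that restrains translation, was at 51.1 and 54.5 CPM against 43.8 and 51.6 CPM, with overlapping libraries (-0.15, 95% interval -0.44 to 0.15). The sensors Ddx60 and Zbp1 were below 10 CPM in every library: Ddx60 had a log2 fold change of -0.58 (95% interval -1.40 to 0.23) and Zbp1 one of 0.09 (-1.25 to 1.43). Such intervals hold both no change and a fall as large as the median of the called members.

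Among the interferon-inducible GTPases, which attack the membranes of intracellular pathogens or trap viral particles, 3 of 7 tested fell. Irgm1, a regulator of the immunity-related GTPases, went from 43.0 and 34.1 CPM to 11.9 and 15.2 CPM (log2 fold change -1.51, SE 0.21, edgeR adjusted p = 8.3e-05). Gbp7, a guanylate-binding protein, went from 27.7 and 28.9 CPM to 13.5 and 12.7 CPM (-1.11, SE 0.21, edgeR adjusted p = 0.0012). Igtp, another immunity-related GTPase, was at 17.1 and 15.1 CPM against 9.55 and 7.80 CPM (-0.89, SE 0.27, edgeR adjusted p = 0.033), and its call ended without fl/fl library 1 (-0.81, edgeR adjusted p = 0.32) or 2 (-0.99, edgeR adjusted p = 0.15). The KO libraries were lower for each of these genes. Ifi47, of the same GTPase family as Irgm1 and Igtp, was at 16.1 and 20.2 CPM in fl/fl and 20.5 and 20.4 CPM in KO (0.17, 95% interval -0.29 to 0.64). Whether Ifi47 differs from Irgm1 in its response was not tested, but their 95% intervals did not overlap. Mx1, Gbp2 and Gbp3 were all under 10 CPM in every library. Gbp3 was at 1.69 CPM in KO library 1 and 7.80 CPM in KO library 2, on either side of its fl/fl libraries at 4.39 and 4.21 CPM. Gbp2, at 4.53 and 3.19 CPM against 2.95 and 0.736 CPM, was called only without KO library 1 (-2.38, edgeR adjusted p = 0.0098).

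Proteins that act at membranes made up the one role in which no member was called lower. Ifitm3, which blocks fusion of viruses with endosomes, was at 62.6 and 57.7 CPM in fl/fl and 50.3 and 49.4 CPM in KO (log2 fold change -0.27, SE 0.13, edgeR adjusted p = 0.16). Ifitm1 was at 7.79 and 8.56 CPM against 8.99 and 6.77 CPM, with no separation of genotypes (-0.05, 95% interval -0.76 to 0.66). Bst2, the tetherin that holds budding virus at the cell surface, was at 10.2 and 14.6 CPM against 17.97 and 12.65 CPM (0.30, 95% interval -0.29 to 0.90). Ifitm2 was the one member called higher, from 8.21 and 7.11 CPM to 13.06 and 16.03 CPM (0.92, SE 0.29, edgeR adjusted p = 0.036). That call ended without fl/fl library 1 (1.02, edgeR adjusted p = 0.17) or 2 (0.81, edgeR adjusted p = 0.33), and a same-strand annotated gene, Gm45717, overlaps 40.9% of its exon length, so its count is uncertain. Rtp4, a receptor transporter protein, had only 35 and 27 counts in fl/fl and 1 and 12 in KO. Its log2 fold change of -2.21 (SE 0.79, edgeR adjusted p = 0.067) did not pass the test, but did with the filter at 1 count (-2.24, edgeR adjusted p = 0.012) and without KO library 2 (-4.83, edgeR adjusted p = 2.3e-05).

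Of the remaining effectors, Ifi27 and Xaf1 fell and Lgals9 did not. Ifi27, a small membrane protein of mitochondria, was at 65.4 and 72.1 CPM in fl/fl and 30.1 and 26.5 CPM in KO (log2 fold change -1.28, SE 0.14, edgeR adjusted p = 1e-05). Xaf1, which antagonises an inhibitor of apoptosis, was at 12.2 and 13.5 CPM against 3.65 and 4.41 CPM (-1.67, SE 0.34, edgeR adjusted p = 0.0024). The genotypes were well separated in both. Lgals9, the secreted lectin galectin-9, was at 89.0 and 82.9 CPM against 82.2 and 82.4 CPM (-0.06, 95% interval -0.28 to 0.15). Ifi35 was at 23.6 and 26.4 CPM against 15.9 and 17.4 CPM and narrowly missed the threshold (-0.59, SE 0.21, edgeR adjusted p = 0.059). It was called without KO library 1 (-0.54, edgeR adjusted p = 0.043) or KO library 2 (-0.67, edgeR adjusted p = 0.012). The chemokine gene Cxcl10, which recruits T cells, had 40 and 40 counts in fl/fl and 14 and 18 in KO (-1.31, SE 0.50, edgeR adjusted p = 0.084), and was called without KO library 2 (-1.55, edgeR adjusted p = 0.015).

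Members that did not pass the test were thus of more than one kind. In 8 of the 19 the 95% interval lay wholly above a log2 fold change of -1: Isg20, Lgals9, Samd9l, Ifitm3, Ifi47, Bst2, Ifit2 and Ifitm1. In the other 11 the interval reached -1 or lower, so a fall of that size lay within it. In 6 of the 19 the whole interval lay below 0 before adjustment for the number of genes, namely Ifit3, Trim30a, Rtp4, Ifi35, Cxcl10 and Ifitm3. Both KO libraries were below both fl/fl libraries in 10 of the 19, and in 27 of all 37 tested members, where 28.2% of all genes tested showed this. Of the 19, 9 had a mean under 10 CPM, while of the 17 that fell only Xaf1 did. Across the 37 tested members Spearman's rho between mean CPM and log2 fold change was -0.07, a description across genes that share the same 4 libraries.

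**Figure D3:**
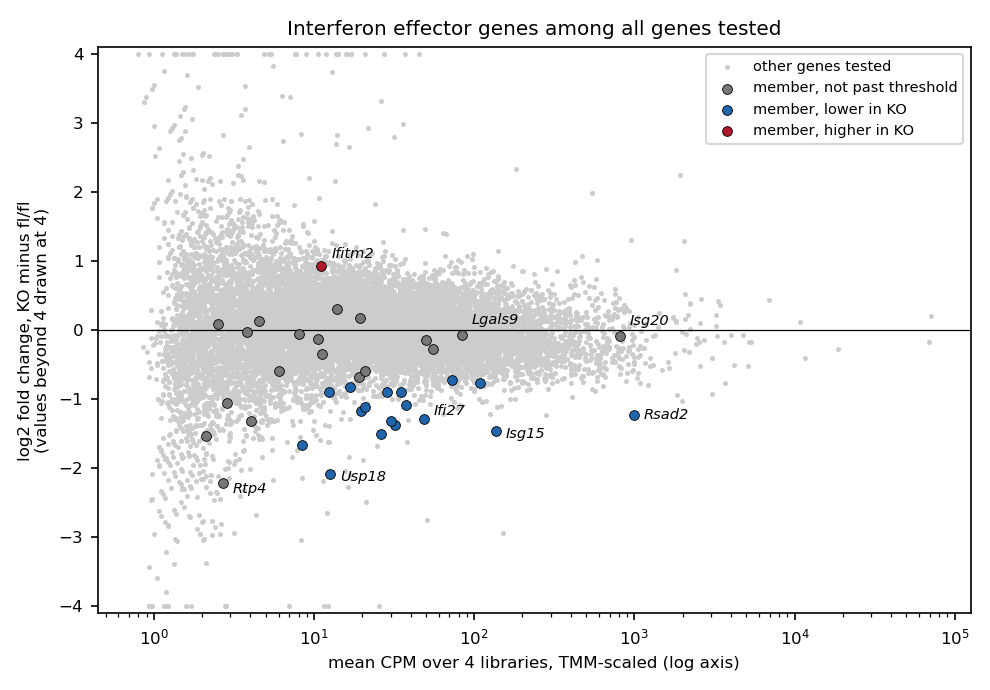
Log2 fold change, KO minus fl/fl, against mean CPM over the 4 libraries on a log axis for all 13052 genes tested (light grey), with the 37 members drawn larger. Members in blue lie along the lower edge of the cloud from about Xaf1 at 8.43 CPM to Rsad2 at 987 CPM, while Isg20 and Lgals9 lie near 0 at high levels.

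Counts were too low to test 3 members. Ifit3b had 5 and 2 counts in fl/fl and 4 and 0 in KO, and Mx2 had 6 and 12 in fl/fl and 3 and 0 in KO. Ifi44 had 8 and 3 counts in fl/fl and 0 in both KO libraries. With the KO libraries together set at the limit of 3 counts, it was 3.7-fold lower in KO. That value takes the 11 fl/fl counts as exact and leaves out variation between libraries. The fall could therefore be smaller. Ifit3, tested with 19 and 25 counts in fl/fl and 7 and 8 in KO, was at -1.53 (SE 0.70, edgeR adjusted p = 0.15). Ifit3 and Ifit3b are close copies, as are members of the Ifitm, Gbp and Mx families, and counting can leave reads of such copies unassigned, so their levels are uncertain. Reads of Ifi35 and of its antisense partner Gm11626, which covers 16.8% of its exon length, cannot be told apart without the strand setting. The same holds for 9.4% of the exon length of Parp9, shared with Dtx3l. Same-strand annotated genes overlap 13.7% of the exon length of Herc6, 11.3% of Gbp7, 8.01% of Igtp and 13.9% of Rtp4. Smaller overlaps exist for other members.

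The genes around the effectors were taken as 7 lists of the interferon pathway. No interferon gene was tested: 11 of 12 ligand genes, with Ifnb1 and 6 genes of the alpha family among them, had a count of 0 in every library, which allows up to 0.421 to 0.441 CPM per library, and Ifng had 2 and 0 counts in fl/fl and 0 and 6 in KO. That limit covers reads assigned to a gene. It leaves out the 23.6% to 26.4% of reads per library that did not align uniquely, as reads of close copies may not. Of 11 receptor, JAK and STAT genes, only Stat2 was called, and it was lower (log2 fold change -0.99, SE 0.17, edgeR adjusted p = 0.00068). The kinase gene Tyk2 was at 0.47 (edgeR adjusted p = 0.06), the kinase gene Jak2 at -0.23 (edgeR adjusted p = 0.08) and the most abundant gene of this list, Jak1, at -0.04 (edgeR adjusted p = 0.76). Tyk2 was called, as higher, without KO library 1 (0.56, edgeR adjusted p = 0.0031), with scaling by library totals alone (0.52, edgeR adjusted p = 0.036) and with the replicate block (0.47, edgeR adjusted p = 0.038). Jak2 was called, as lower, without KO library 1 (-0.34, edgeR adjusted p = 0.00076) and with every gene of at least 1 count tested (-0.25, edgeR adjusted p = 0.031). Of 8 IRF factors tested, 2 were lower, Irf9, the DNA-binding subunit beside STAT2, by 1.22 (SE 0.13, edgeR adjusted p = 9.2e-06) and Irf7, an amplifier of type I interferon, by 1.04 (SE 0.11, edgeR adjusted p = 8.2e-06). Irf8, a myeloid and lymphoid factor, was higher by 0.50 (SE 0.11, edgeR adjusted p = 0.0033), and was no longer called without fl/fl library 1 (0.50, edgeR adjusted p = 0.051) or 2 (0.48, edgeR adjusted p = 0.074).

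Other induced genes did not all follow the effectors. Of 8 genes of the OAS family and RNase L that were tested, 4 were lower and none higher: the log2 fold changes were -1.21 for Oas3, -2.102 for Oasl2, -1.59 for Oas1b and -2.175 for Oas2. Of 10 genes of MHC class I presentation, many of which interferon also induces, 4 were higher and 1 lower. Tap2, a subunit of the peptide transporter, rose by 0.71 (SE 0.15, edgeR adjusted p = 0.0037), H2-K1 by 0.28 (SE 0.06, edgeR adjusted p = 0.003), H2-D1 by 0.19 (SE 0.05, edgeR adjusted p = 0.011) and the immunoproteasome gene Psmb8 by 0.63 (SE 0.18, edgeR adjusted p = 0.024), while B2m fell by 0.16 (SE 0.05, edgeR adjusted p = 0.045). The number of genes called higher in this list was 2 when either fl/fl library was left out, and 6 when KO library 1 was, with scaling by library totals alone or with the replicate block. H2-D1 was not called without fl/fl library 1 (0.15, edgeR adjusted p = 0.20) and H2-K1 not without fl/fl library 2 (0.26, edgeR adjusted p = 0.069). B2m was called neither there nor with scaling by library totals alone. The median log2 fold change was -0.99 for the OAS list and 0.30 for the MHC list, against -0.82 for the effectors and 0.02 for all genes tested. Of 11 upstream sensors and adaptors tested, only Adar, an RNA-editing enzyme, was called, lower by 0.59 (SE 0.12, edgeR adjusted p = 0.0024; -0.51 and 0.087 without fl/fl library 2), with Mavs at 0.32 (edgeR adjusted p = 0.075) and Myd88 at 0.45 (edgeR adjusted p = 0.077) not past the threshold. Both were called higher without KO library 2 (0.40 for Mavs and 0.55 for Myd88, edgeR adjusted p = 0.0072 and 0.0038) and with scaling by library totals alone (0.38 and 0.51, edgeR adjusted p = 0.041 and 0.049). Of 7 negative regulators, only the phosphatase gene Ptpn6 was called, higher by 0.46 (SE 0.09, edgeR adjusted p = 0.0016). Socs3, a feedback inhibitor of cytokine receptors, was at 0.47 (edgeR adjusted p = 0.06), and was called without KO library 1 (0.59, edgeR adjusted p = 0.0016), with scaling by library totals alone (0.53, edgeR adjusted p = 0.036) and with the replicate block (0.47, edgeR adjusted p = 0.033). Socs1, of the same family, was at 2.69 and 2.03 CPM in fl/fl and 3.51 and 4.85 CPM in KO, a log2 fold change of 0.82 (SE 0.56, edgeR adjusted p = 0.35).

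**Figure D4:**
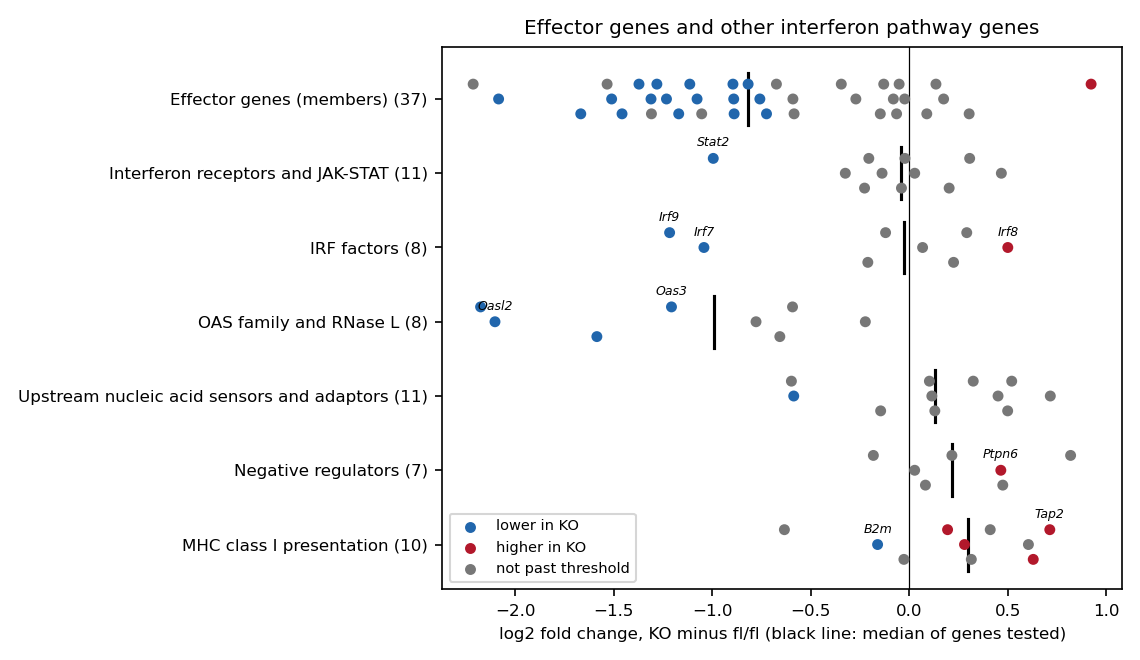
Log2 fold change, KO minus fl/fl, of the tested effector genes and of 6 lists of other interferon pathway genes, with the number tested in brackets; each point is a gene, blue for called lower, red for called higher and grey for not past the threshold, and black lines are medians. The effectors and the OAS list have medians of -0.82 and -0.99, the MHC class I list one of 0.30; the 12 ligand genes were not tested and are not drawn.

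Several lists of markers of other cells also shifted between the genotypes. The shares over all genes tested were 8.5% called higher and 9.89% called lower. Neutrophil markers rose for 11 of 12 tested and summed to 13925 to 14114 CPM in fl/fl and 19775 to 20149 CPM in KO. Monocyte markers rose for 4 of 9 (2134 to 2185 against 3055 to 3109 CPM), megakaryocyte and platelet markers for 8 of 9 (81.8 to 88.8 against 198 to 202 CPM, with Gp1bb at 0 in every library), and plasma cell markers for 3 of 4 (126 to 132 against 401 to 411 CPM). Of 9 B cell markers, 2 were called higher, Ighm and Cd79a, while 6 had log2 fold changes below 0 (list median -0.10). Their sum, 898 to 909 against 3377 to 3398 CPM, rose through Ighm. That gene was at 681 and 656 CPM in fl/fl and 3154 and 3159 CPM in KO. Endothelial and stromal markers rose for 3 of 5 (269.6 to 272.7 against 444 to 481 CPM). Macrophage markers were lower for 3 of 11, Vcam1, Cd5l and Hmox1, and none higher, with a summed level of 467 to 491 CPM in fl/fl and 398 to 405 CPM in KO. The other 8 were not past the threshold, with log2 fold changes from -0.27 (Adgre1) to 0.44 (Mertk) and C1qa at 0.01. The list median was -0.10. Of 9 markers of plasmacytoid dendritic cells, the main interferon producers, only Irf8 was called, higher, and their sum was 121 to 128 CPM against 158 to 179 CPM. None of 6 tested T and NK cell markers was called (43.1 to 44.7 against 53.0 to 57.4 CPM). Among erythroid markers 7 of 9 were lower and 2 higher, with summed levels that overlapped between genotypes. The part of these cell types in the fall of the effectors was not tested.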

How the data were processed

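Poly(A) RNA was sequenced from 4 libraries, 2 of Med16 fl/fl and 2 of Med16 KO. The authors deposited raw counts for each gene, made with FastQC 0.11.7, HISAT2 2.1.0 and HTSeq 0.12.4 on build GRCm39, per the submitters' processing notes; annotation release and strand setting: not given in the sources used here. The 5 rows that name no gene, 67.3% to 67.7% of all reads, were left out.

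Counts were fitted in R 4.3.3 with edgeR 4.0.16 (filterByExpr, TMM, quasi-likelihood test, genotype as the only term, Benjamini-Hochberg over 13052 genes). Intervals are 95% intervals from the quasi-likelihood standard error, with 2 residual and 13.1 prior degrees of freedom. The procedure was tested on simulated counts. Alternatives were DESeq2 1.42.0, other scalings and filters, a replicate block, and each library left out. Libraries differed by more than sampling noise (chi-square per degree of freedom 2.73 within fl/fl, 6.63 within KO), so none was treated as a repeat deposit of another, which does not show that they are from different animals.

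Members and lists were chosen with earlier results of these data known. All members are named. From each pathway list the rule names the 3 genes with the smallest adjusted p and the most abundant gene; Oas2, Psmb8, B2m and Ifng were named after their values were seen. A gene that the lists would hold is not reported here. Exon lengths and overlaps came from GENCODE M21 (GRCm38), and promoters from RefSeq. Promoters were printed for the 3 called members with the smallest p that have an entry, and the 2 members not called with the highest mean CPM.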

Additional observations from a re-analysis of the deposited data

How the results depend on the processing

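Across 10 alternatives the members called lower numbered 14 to 22 in place of 17. All 17 were called with DESeq2 (18 lower, 30 members with an adjusted p), RLE size factors (17), library totals alone (17), no filter beyond 1 count (19), a mean of at least 10 counts (17) and the replicate block (19), with Trim30a and Rtp4 the additions where 19 were called; 14 were called in every alternative, the exceptions being Herc6, Parp12 and Igtp. No called member changed sign. Of those not called, fits that left out 1 library spanned 0 for Gbp3 (-1.35 to 0.84), Mx1 (-0.60 to 0.91), Ifit2 (-0.51 to 0.15), Dhx58 (-0.87 to 0.01), Ifitm1 (-0.28 to 0.12), Zbp1 (-0.22 to 0.33) and Jak1 of the pathway lists (-0.12 to 0.02), with no call where the sign changed. Signs also changed with the replicate block for Gbp3 (-0.12) and Mx1 (0.08), and with scaling by totals alone for Mx1 (0.03), Jak1 (0.02) and Ifitm1 (0.00). The median of the members was -0.76 with scaling by library totals alone, -0.88 with genes of at least 1 count, and -0.87 to -0.78 in fits without 1 library. Members called higher were 0 to 1 in those fits. Pathway list genes called higher numbered 6, and 12 with scaling by totals alone, 10 with the replicate block and 3 to 14 without 1 library; those called lower numbered 9, and 7 to 13 without 1 library. Over all genes, 1109 were called higher and 1291 lower; without 1 library 454 to 1839 were higher and 704 to 2172 lower, and with scaling by totals alone 1365 were higher and 1055 lower. That scaling moved the median of all genes to 0.07. Fits without 1 library take the spread of the lone library from the other genotype. Same-numbered libraries did not deviate together (r = -0.01 across genes). With 2 libraries per genotype, this cannot show whether the numbers mark a shared animal, batch or day. Causes of these shifts were not tested. At 1 count to 0.140 to 0.147 CPM, members under 10 CPM have wide intervals.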
